A study of Mus musculus with 6 samples.

Results

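Glucose transporters and the proteins that move GLUT4 vesicles were described through 9 genes, Slc2a1, Slc2a3, Slc2a4, Slc2a8, Tbc1d1, Tbc1d4, Lnpep, Vamp2 and Stx4a, using every probe set annotated to exactly 1 of them. These were 19 of 45037 probe sets, covering 8 of the 9 genes, and no probe set named Lnpep alone. Of the 19, 14 probe sets of 7 genes were bright enough to be tested. The 6 arrays measured total RNA of 3T3-L1, an established mouse line of preadipocytes, with 3 samples treated with resveratrol, a plant polyphenol, and 3 untreated controls. Dose, duration, differentiation and insulin are not stated in the labels. The series describes the 3 samples of a group as replicates of cell cultures, without saying whether they were grown on different days, and p-values here cover no more than the scatter among these samples. Transcript levels alone were measured, not the position of any protein in the cell.

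Glucose enters fat cells through facilitative transporters of the GLUT family. GLUT1, the product of Slc2a1, and GLUT3, the product of Slc2a3, sit mostly at the cell surface and carry basal uptake. GLUT4, the product of Slc2a4, is held inside the cell in storage vesicles until insulin sends them to the plasma membrane. In that step AKT phosphorylates TBC1D4 and its relative TBC1D1, Rab GTPase-activating proteins that otherwise retain the vesicles. The aminopeptidase IRAP, encoded by Lnpep, travels as cargo in the same vesicles, and the SNARE proteins VAMP2 on the vesicle and syntaxin 4 (Stx4a) on the plasma membrane mediate fusion. Slc2a8 encodes GLUT8, a transporter found mainly on intracellular membranes.

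Slc2a4 fell to 43.1% or 37.3% of its control level, depending on the probe set. Slc2a8 fell by less, with a call that depended on the processing, and no other member passed the test in either direction. In RNA from whole cultures, fewer cells of a type and less RNA per cell cannot be told apart. By the brightest probe set of each gene, 2 of 7 genes were lower and 0 higher, against 5.21% lower, 5.32% higher and 10.5% in either direction over all 12630 genes tested. The median log2 change was -0.03 over the 7 genes and 0.02 over all genes. By probe sets, 3 of 14 were lower and 0 higher in limma, against 4.22% lower, 3.95% higher and 8.17% in either direction over all 27022 tested. An unadjusted p under 0.05 was seen for 5 of the 14. The share of such p-values over all probe sets was not counted and lies above the 8.17% called, so this count has no background. The test was limma's moderated fit on log2(intensity + 16), 2-sided, with Benjamini-Hochberg adjustment over all 27022 probe sets and a threshold of 0.05. A log2 change is resveratrol minus control on that scale throughout.

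Slc2a4 was read by 2 probe sets. The first, 1415958_at, had intensities of 379, 453 and 307 in the resveratrol cultures, against 949, 857 and 833 in the control cultures. The second, 1415959_at, had 352, 341 and 344 with resveratrol, against 916, 941 and 927 in controls. In both probe sets every treated culture lay below every control culture, with a wide gap between the groups. The first probe set averaged 380 ± 73.3 with resveratrol and 880 ± 61.2 in controls (SD, n = 3 each), so that the treated mean was 43.1% of the control mean. Its log2 change was -1.19 ± 0.12 (SE), with a 95% confidence interval of -1.46 to -0.93 and a limma adjusted p = 0.000172.

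For the second probe set the treated mean was 37.3% of the control mean, and the log2 change was -1.38 ± 0.07 (SE, limma adjusted p = 1.48e-06). The treated cultures spread more in the first probe set, with a coefficient of variation of 19.3%, than in the second, with 1.63%: the high value of replicate 2 and the low value of replicate 3 in the first were not seen in the second. Over all 6 arrays the pair of probe sets correlated with r = 0.96, a value that the distance between the groups largely sets. By its log2 change Slc2a4 stood at rank 56 from the lowest of 12630 genes. The fall passed under all 17 other ways of processing, between -1.33 and -1.06 for the first probe set and between -1.42 and -1.28 for the second.

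**Figure D1:**
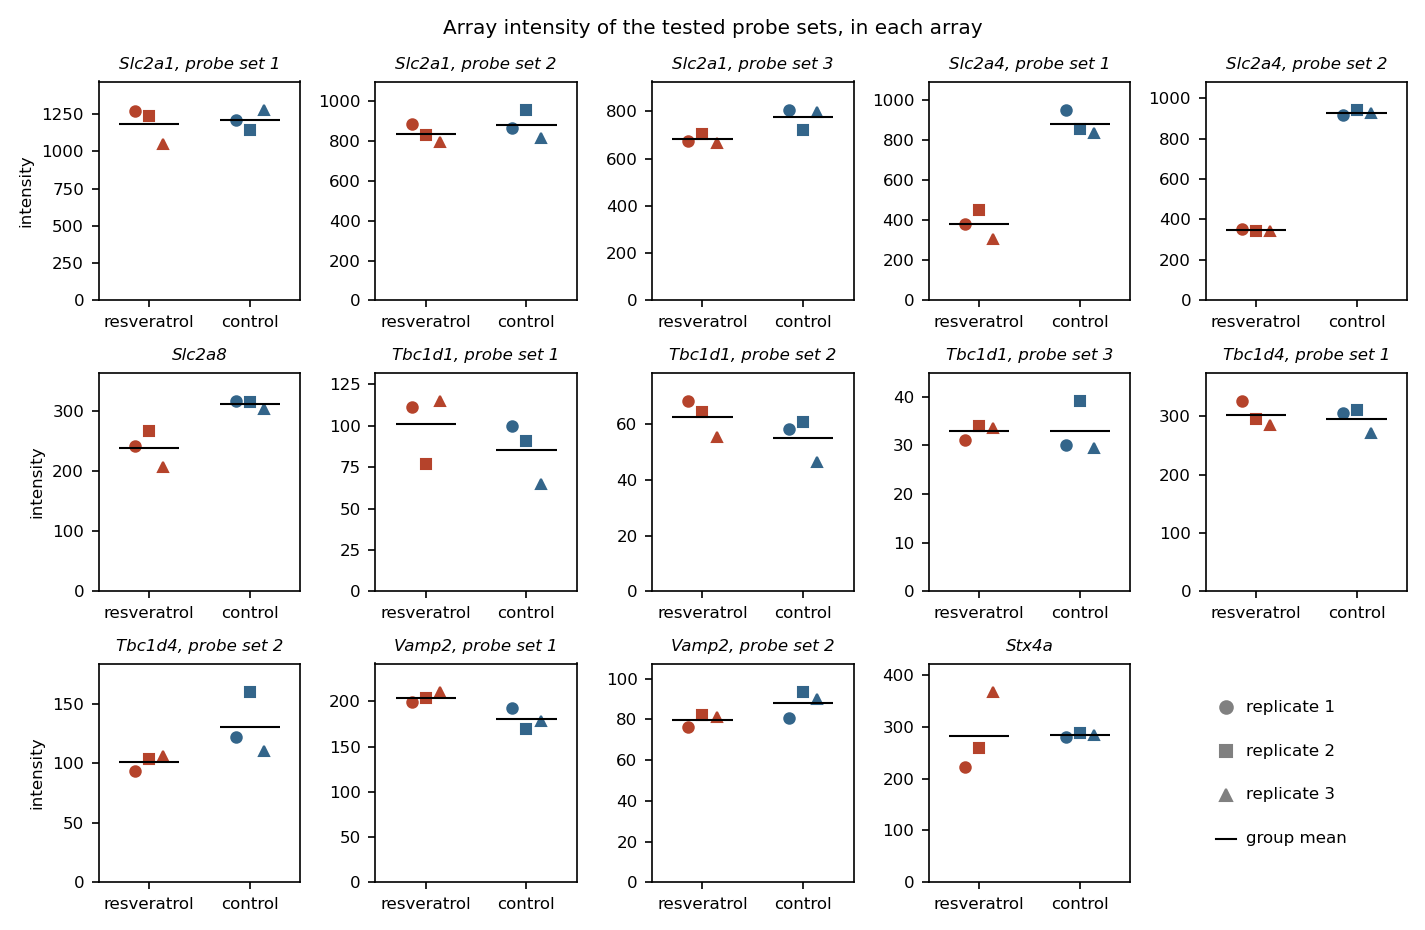
Array intensity (linear scale from 0) of the 14 tested probe sets, numbered within a gene from the brightest, in the 3 resveratrol cultures (left, red) and the 3 control cultures (right, blue). Marker shapes stand for replicates and bars for group means; both Slc2a4 probe sets, with treated means of 380 and 346 against control means of 880 and 928, show the widest gap.

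Slc2a8 had intensities of 242, 267 and 207 with resveratrol, against 316, 314 and 303 in controls, on its only probe set, 1450628_at. No treated culture reached the lowest control, but the treated cultures spread over a wider range than the controls, at 238 ± 30.2 with resveratrol and 311 ± 6.74 in controls (SD, n = 3 each). The log2 change was -0.37 ± 0.10 (SE), with an interval of -0.58 to -0.15 and a limma adjusted p = 0.0412. Its direction held under all 17 alternatives and its call under 9 of them. The call was lost when any 1 array other than resveratrol replicate 2 was left out, with limma adjusted p between 0.0755 and 0.122 and a change of -0.28 without resveratrol replicate 3, as well as without a filter on dim probe sets, without an intensity trend in the variance, and with the arrays' spike signal as a block (adjusted p = 0.0818, 0.122 and 0.0869).

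Slc2a1, the basal transporter, was among the members that did not pass, on any of its 3 probe sets. Its brightest, 1434773_a_at, had 1271, 1236 and 1048 with resveratrol, against 1207, 1145 and 1276 in controls, and the groups overlapped. The log2 change of this probe set was -0.03 ± 0.09 (SE, limma adjusted p = 0.882), and its interval of -0.23 to 0.16 leaves room for a modest change in either direction. A second, 1426599_a_at, also overlapped and had a log2 change of -0.07 (limma adjusted p = 0.695). The third, 1426600_at, read 674, 704 and 666 with resveratrol, against 805, 721 and 797 in controls. Here all treated cultures lay below all controls, with a log2 change of -0.18 ± 0.07 (SE), an unadjusted p = 0.0342 and a limma adjusted p = 0.183. Groups that do not overlap were common on these arrays, at 26.4% of all probe sets tested, and 6 of the 14 members' probe sets were of this kind. By genes the share was 30.2%, with 3 of the 7 members.

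Slc2a3, the high-affinity transporter best known from neurons, gave signals near the floor of the array on all 4 of its probe sets. The values ran between 1.0 and 21.8 with resveratrol and between 1.55 and 21.9 in controls, and no probe set reached the mean level of 20.3 needed for testing. At this level no difference in Slc2a3 was detectable, and the deposited values carry no detection call to say whether it was present.

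The promoter sequences of 6 of the 9 genes could be matched by symbol in RefSeq (build GRCm38.p6). Slc2a3, Slc2a4 and Vamp2 had no entry in the table. The 250 bases before the annotated start are shown for the other pair of transporters, Slc2a8, which passed the test, and Slc2a1, which did not, 5′ to 3′ on the strand of the gene. Slc2a8 is at chr2:32982084-32982333 on the minus strand and Slc2a1 at chr4:119108495-119108744 on the plus strand. Capitals mark matches on either strand to CCAAT, the CCAAT box that NF-Y and related factors read, and to ACGTG, the core of hypoxia response elements.
Slc2a8: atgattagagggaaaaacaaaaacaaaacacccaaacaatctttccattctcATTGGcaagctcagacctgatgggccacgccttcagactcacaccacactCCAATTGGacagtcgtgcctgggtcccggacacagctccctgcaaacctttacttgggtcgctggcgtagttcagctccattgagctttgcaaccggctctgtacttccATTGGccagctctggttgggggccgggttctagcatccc
Slc2a1: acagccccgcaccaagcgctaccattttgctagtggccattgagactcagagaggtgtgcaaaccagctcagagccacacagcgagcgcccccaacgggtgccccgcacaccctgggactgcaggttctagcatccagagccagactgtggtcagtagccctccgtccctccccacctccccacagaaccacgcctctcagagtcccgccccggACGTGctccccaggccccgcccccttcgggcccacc

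In the Slc2a8 window CCAAT matched 4 times, a pair of these matches sharing letters on opposite strands, and ACGTG matched 0 times. In the Slc2a1 window ACGTG matched 1 time and CCAAT 0 times. Of all 32851 promoter windows of this length, 33.8% held CCAAT and 16.6% held ACGTG, so both are common, and TATAAA, which 12.4% of windows held, was in neither of these. The windows had a GC content of 52.8% for Slc2a8 and 66.4% for Slc2a1. A match of letters is a description and says nothing of binding.

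The change of Slc2a4 was also set against that of each other member within the arrays. The log2 change of Slc2a4 minus that of Slc2a8 was -0.83 ± 0.07 (SE), and minus that of Slc2a1 it was -1.16 ± 0.13. These SEs rest on the variance among the arrays of each group alone, without limma's moderation, unlike the SEs given elsewhere. For Tbc1d4, Stx4a, Vamp2 and Tbc1d1 the differences were -1.22, -1.16, -1.36 and -1.41. Each of these 6 comparisons had an exact 2-sided permutation p = 0.1, which is the smallest that 3 arrays against 3 allow and stayed at 0.1 after Benjamini-Hochberg adjustment, so none can pass the threshold in this design.

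**Figure D2:**
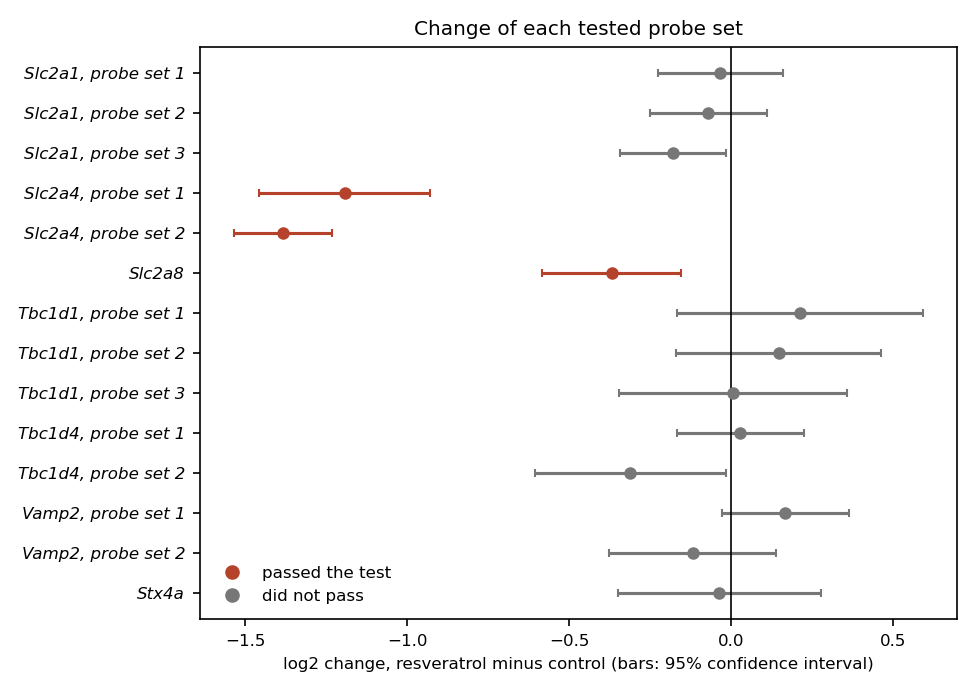
Log2 change (resveratrol minus control) of the 14 tested probe sets with 95% confidence intervals; red points passed the limma test and grey points did not. The Slc2a4 points lie at -1.19 and -1.38 and the Slc2a8 point at -0.37, while the points of Slc2a1, Tbc1d1, Tbc1d4, Vamp2 and Stx4a lie between -0.31 and 0.21.

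Among the proteins that hold or release the vesicles, Tbc1d4 (also called AS160) had 2 probe sets that gave different values. The brighter, 1435292_at, had 326, 295 and 286 with resveratrol, against 306, 311 and 271 in controls, and the groups overlapped. Its log2 change was 0.03 ± 0.09 (SE, limma adjusted p = 0.899). The dimmer, 1455903_at, had 93.8, 104 and 106 with resveratrol, against 122, 160 and 110 in controls. All treated values lay below the controls there, but control replicate 2 stood above both others, and the change of -0.31 ± 0.13 did not pass (limma adjusted p = 0.205).

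Tbc1d1, the relative of Tbc1d4 that is best known from skeletal muscle, had 4 probe sets, 3 of them tested. On the brightest, 1419447_s_at, the values were 112, 76.8 and 115 with resveratrol, against 100.1, 90.6 and 64.7 in controls, and the groups overlapped. Its log2 change was 0.21 ± 0.17 (SE, limma adjusted p = 0.547), with an interval of -0.17 to 0.59, the widest among the tested members. The others tested gave 0.15 and 0.01 and did not pass, and the fourth lay between 1.1 and 2.8 with resveratrol and between 2.67 and 5.3 in controls, too dim to be tested.

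The 2 SNARE genes did not pass either. Vamp2 had 199, 203 and 210 with resveratrol, against 192, 170 and 179 in controls, on its brighter probe set 1420834_at. The treated cultures lay just above the controls, with a log2 change of 0.17 ± 0.09 (SE, limma adjusted p = 0.316). Its other probe set, 1420833_at, pointed the other way, at -0.12 (limma adjusted p = 0.634), so the pair gives no common direction for Vamp2. Stx4a, on 1451573_a_at, had 222, 259 and 367 with resveratrol, against 280, 289 and 284 in controls. Control cultures agreed closely, with a coefficient of variation of 1.60%, while the treated ones spread over a coefficient of variation of 26.6% and lay on both sides of the controls. The log2 change was -0.04 ± 0.14 (SE, limma adjusted p = 0.921), and it was 0.11 without resveratrol replicate 1.

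Around the members stand 8 lists of genes of glucose entry and of the GLUT4 pathway, counted by the brightest tested probe set of each gene. Of their 104 tested genes 14 passed, or 13.5%, against 10.5% of all genes. Lower were 10 (9.62%, against 5.21% of all genes) and higher 4 (3.85%, against 5.32%). Of 5 tested other hexose transporters 1 rose, Slc2a10, and the values of Slc2a5, Slc2a9, Slc2a13 and Slc5a2 were 0.05, -0.13, 0.23 and -0.09 on the log2 scale. Slc2a10, which encodes GLUT10, had 177 ± 3.73 with resveratrol and 126 ± 17.8 in controls (SD, n = 3 each), a log2 change of 0.45 ± 0.11 (limma adjusted p = 0.0305). Its call was lost without any 1 array other than control replicate 3 (adjusted p between 0.0767 and 0.11), with the spike signal as a block (0.066), without a filter (0.062) and without an intensity trend (0.0801), and its second probe set, at 0.26, did not pass.

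Of 20 genes of the GLUT4 storage vesicle and its sorting, 2 fell and 18 did not pass. Trarg1 encodes a membrane protein of adipocytes that resides in GLUT4 vesicles. It had 32.5, 11.9 and 40.8 with resveratrol, against 121, 90.3 and 92.1 in controls. These groups lay far apart, with a log2 change of -1.45 ± 0.24 (SE, limma adjusted p = 0.00386). At so dim a level the added offset decides the size, and the change was -1.95 with an offset of 1 and -0.85 with an offset of 64, each past the threshold. Tfrc, the transferrin receptor that recycles through endosomes shared with GLUT4, had 870 ± 55.9 with resveratrol and 1351 ± 78.3 in controls, a change of -0.63 (limma adjusted p = 0.000765). The vesicle proteins sortilin (Sort1) and Lrp1 and the tether Aspscr1, also called TUG, had changes of 0.01, -0.01 and 0.02 and did not pass. The list median was -0.02, against 0.02 over all genes, and 10% of its tested genes were lower, against 5.21% of all genes.

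Among 16 Rab and Ral GTPases and their regulators 3 fell, none rose and 13 did not pass, so that 18.8% were lower, against 5.21% of all genes. Rab5a, the GTPase of early endosomes, changed by -0.54 ± 0.11 (SE, limma adjusted p = 0.0107), Rhoq, the GTPase TC10, by -0.42 ± 0.07 (0.00551), and Dennd4c, the exchange factor for Rab10, by -0.36 ± 0.09 (0.0403). The Rab5a call was lost without resveratrol replicate 2 (adjusted p = 0.0542), and that of Dennd4c without any 1 array other than control replicate 2 (between 0.0756 and 0.128), with the replicate number or the spike signal as a block (0.0519 and 0.0636), and without a filter (0.0696). Without an intensity trend none of these 3 passed (adjusted p = 0.0729 for Rab5a, 0.0528 for Rhoq and 0.107 for Dennd4c). Rab10, the GTPase on GLUT4 vesicles that TBC1D4 acts on, had -0.28 and narrowly missed the threshold (limma adjusted p = 0.0500214).

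Of 19 genes of the exocyst, motors and membrane fusion, 1 fell and 1 rose. These shares, 5.26% lower and 5.26% higher, were near those of all genes, 5.21% and 5.32%. Kif3a, a kinesin motor subunit, changed by -0.58 ± 0.08 (SE, limma adjusted p = 0.00192) on 1 of 4 probe sets, the others reaching up to -0.08 and not passing. Napa, the SNARE recycling factor alpha-SNAP, rose by 0.29 ± 0.07 (limma adjusted p = 0.0285). The Napa call was lost without any 1 resveratrol array or control replicate 2 (adjusted p between 0.0598 and 0.114), with the replicate number as a block (0.0516), and without an intensity trend (0.123). In the branch of CAP and TC10 at lipid rafts, 0 of 8 tested genes passed in limma, against 10.5% of all genes. Of these 8, 2 had an unadjusted p under 0.05, a share that was not counted over all genes. Cav1, caveolin 1, had -0.07. Among 7 hexokinases and regulators of GLUT1, Hk2, the insulin-responsive hexokinase that traps glucose in the cell, fell by 0.55 on the log2 scale, to 912 ± 25.2 with resveratrol against 1339 ± 47.6 in controls (SD, n = 3 each, limma adjusted p = 0.000874). Hk2 alone passed in this list, so that 14.3% were lower, against 5.21% of all genes. Hk1 had 0.08 and Txnip, which promotes removal of GLUT1 from the surface, -0.07, and neither passed.

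Known regulators of Slc2a4 transcription included 2 that fell among 12 tested, or 16.7% against 5.21% of all genes, and none rose. Klf15, a factor that activates the Slc2a4 gene with MEF2A, had 308 ± 10.7 with resveratrol and 556 ± 30.3 in controls, a change of -0.82 ± 0.08 (SE, limma adjusted p = 0.00012). Ppargc1a, a coactivator, changed by -0.60 (limma adjusted p = 0.00208) and was lower on 3 of its 5 tested probe sets. Mef2a had -0.00, Ebf1 -0.28 and Nr1h3 -0.13, none of which passed. All 12 tested changes of this list were negative, with a median of -0.15 against 0.02 over all genes, and 4 had an unadjusted p under 0.05. Some were far smaller than their SE, such as Srebf1 at -0.003 ± 0.11 and Nfia at -0.03 ± 0.09. Neither the share of negative changes nor that of unadjusted p-values under 0.05 was counted over all genes. In the list named for the insulin signal to TBC1D4, which also holds the AMPK subunits Prkaa1 and Prkaa2, 1 of 17 tested genes fell and 2 rose. That is 5.88% lower, against 5.21% of all genes, and 11.8% higher, against 5.32%. Insr, the insulin receptor, changed by -0.43 ± 0.09 (SE, limma adjusted p = 0.0137), and its call was lost without resveratrol replicate 2 (0.057) and without an intensity trend (0.0564). Its other probe sets reached up to 0.06. Akt1 rose by 0.61 ± 0.08 (limma adjusted p = 0.00136) on 1 of 3 probe sets, while Akt2, the isoform best known for GLUT4 traffic, had -0.15 and did not pass. Prkaa1, a catalytic subunit of the energy sensor AMPK, rose by 0.42 (limma adjusted p = 0.033), a call lost without any 1 array other than control replicate 3 (between 0.0659 and 0.0974), with the spike signal as a block (0.0751), without a filter (0.0651) and without an intensity trend (0.0907).

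**Figure D3:**
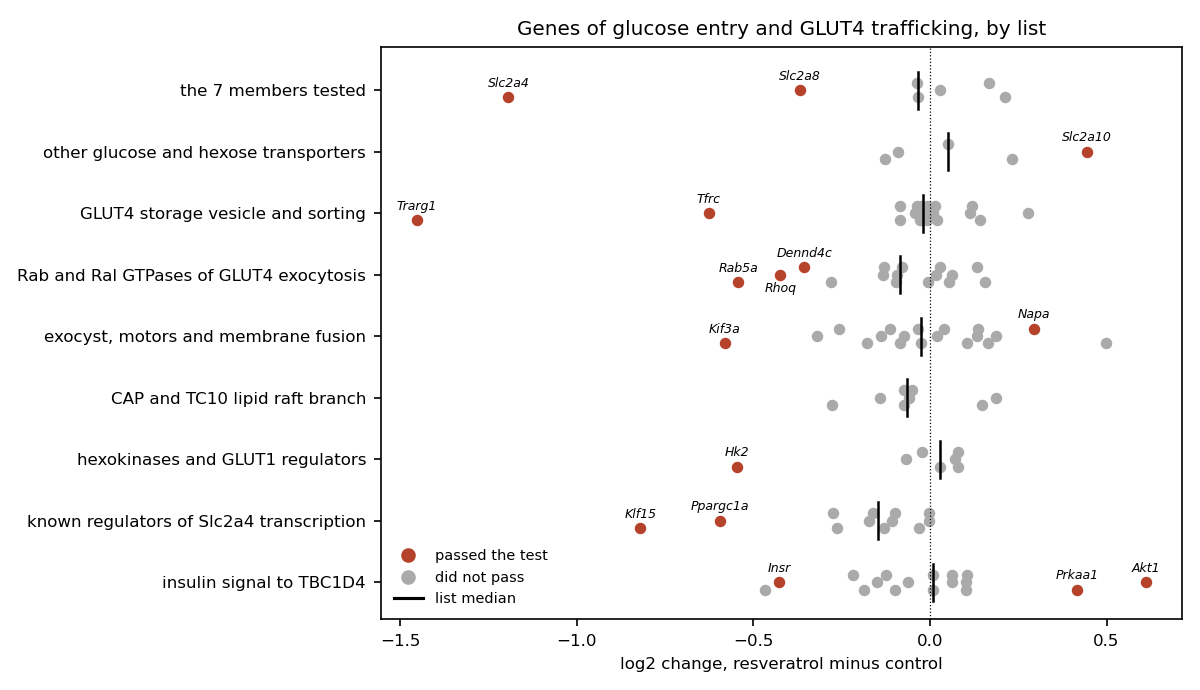
Log2 change (resveratrol minus control) of each tested gene, by its brightest probe set, for the 7 tested members and the 8 lists; red points passed the limma test and carry their gene's name, grey points did not, and bars are list medians. Slc2a4 at -1.19 and Trarg1 at -1.45 stand at the far left, while list medians lie between -0.15 and 0.05.

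Over the 6 arrays, the genes whose log2 values were most like those of the first Slc2a4 probe set were Hp, the plasma protein haptoglobin, with r = 0.998, Fxyd1, a regulator of the sodium pump, with 0.998, and Acaa2, a thiolase of mitochondrial fatty acid oxidation, with 0.997. Adtrp and Idh3g, a subunit of mitochondrial isocitrate dehydrogenase, followed with 0.996 each. With the second probe set the closest genes were Bhlhe40, Tmem102, P4ha1, Hadha and Ero1a, each at 0.998 or 0.999, and these had 0.954 to 0.971 with the first. The 5 nearest genes thus depend on which probe set reads Slc2a4. The same measure for Slc2a1 named Hmgb3 with 0.982, Mettl4 with 0.972, Mycbp with 0.970, Fmod with 0.967 and 1700128F08Rik with 0.965. These are descriptions over points that share 2 groups.

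Slc2a4 is itself a gene of mature adipocytes and of muscle, so the cell type markers were read beside it. Adipocyte markers were bright, with a mean intensity of 10836 for Fabp4 and 7730 for Adipoq over all arrays, while Lep was too dim to be tested. Of 10 adipocyte markers 7 were tested, 2 fell and none rose, so that 28.6% were lower, against 5.21% of all genes. All 7 changes were negative, 4 had an unadjusted p under 0.05, and 2 of the 7 genes, Pparg and Cebpa, are also among the regulators of Slc2a4. Shares of negative changes and of such p-values over all genes were not counted. The 2 that fell were Cidec, a lipid droplet protein, at -0.57 (limma adjusted p = 0.0078), and Retn, which encodes resistin, at -0.54 (0.0255), and the list median was -0.28. The summed intensity of the adipocyte markers ran from 31005 to 36679 with resveratrol and from 33634 to 47494 in controls, and the groups overlapped. Fabp4, the brightest probe set of every array, weighs most in this sum. It read 11741 on resveratrol replicate 1 and 12054 and 14421 on control replicates 1 and 2, the arrays with brighter spike-in controls. On the arrays with dimmer spike-in controls it read 8760 to 9121. The overlap of the sums therefore cannot be read apart from the brightness of the arrays. Gene by gene, the groups overlapped for Fabp4, Adipoq and Cebpa and not for Cidec, Retn, Pparg and Lipe. Over all genes 30.2% did not overlap. Of 6 tested preadipocyte and fibroblast markers 1 rose, or 16.7% against 5.32% of all genes. It was Thy1, by 0.40 (limma adjusted p = 0.0078). Dlk1, Pdgfra, Pdgfrb, Col1a1 and Vim had 0.08, -0.07, 0.18, -0.32 and 0.03 and did not pass. For Col1a1 every treated culture lay below every control culture. The summed intensity of the list was 17549 to 21198 with resveratrol against 18413 to 20999 in controls. Of 5 tested macrophage markers 1 rose, or 20% against 5.32% of all genes. It was Cd14, by 0.47 (limma adjusted p = 0.0365). Adgre1, Csf1r, Cd68 and Lyz2 had -0.04, 0.15, 0.21 and 0.43 and did not pass, and Ptprc and Itgam were too dim to be tested. Summed intensities of the macrophage markers were low, at 387 to 439 with resveratrol against 281 to 358 in controls. Of the 3 skeletal muscle markers tested 0 passed in limma and 0 had an unadjusted p under 0.05, their summed intensities were 221 to 252 with resveratrol and 211 to 262 in controls, and Myog, Myh1 and Myh4 had means of 7.48, 6.47 and 4.81. The part of cell composition in the fall of Slc2a4 was not tested.

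As to the arrays, their correlation on log2 values was 0.986 to 0.988 among resveratrol arrays, 0.984 to 0.986 among control arrays, and 0.977 to 0.980 between the groups. The spike-in controls were brighter on resveratrol replicate 1 and on control replicates 1 and 2 than on the other 3 arrays. Within the brighter arrays the first Slc2a4 probe set had a log2 difference of -1.22, and within the dimmer ones -1.13. For the second these were -1.36 and -1.39, and for Slc2a8 -0.36 and -0.35. Those of Stx4a, -0.33 and 0.11, and of the brightest Slc2a1 probe set, 0.11 and -0.16, had opposite signs in the 2 sets of arrays.

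**Figure D4:**
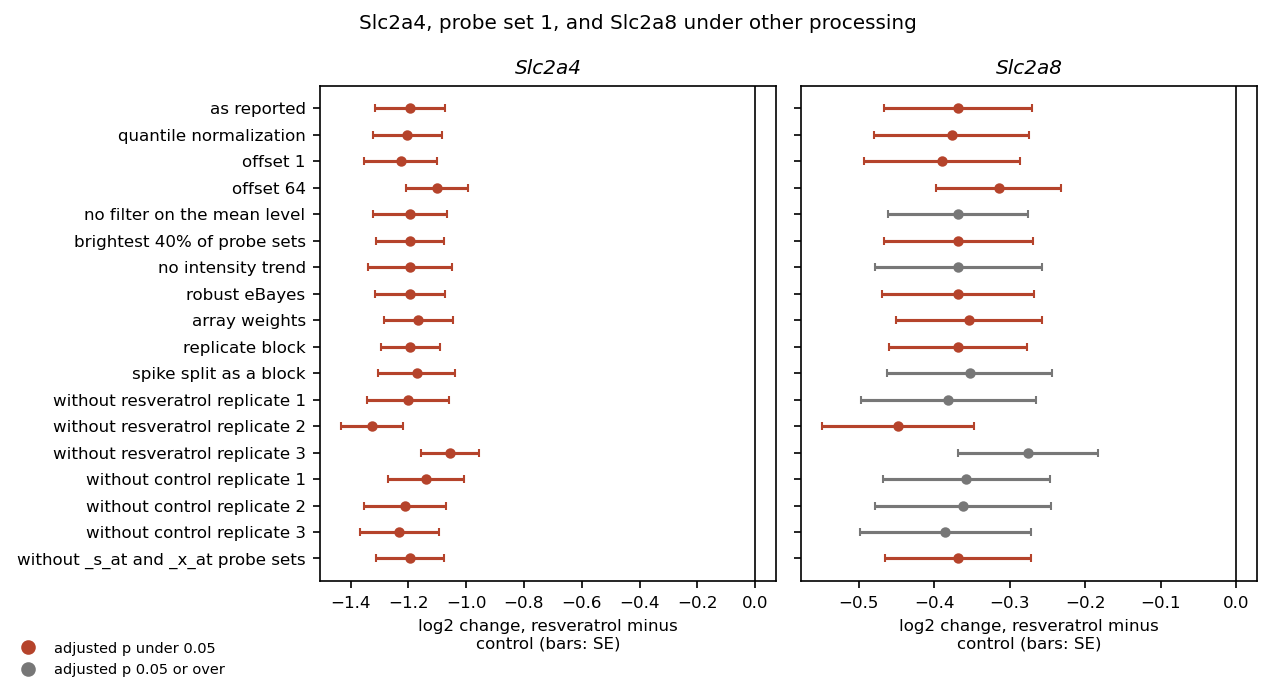
Log2 change (resveratrol minus control, bars are SE) of Slc2a4 by its first probe set and of Slc2a8 as reported and under 17 other ways of processing, each panel with its own scale; red points had an adjusted p under 0.05 and grey points did not. Slc2a4 stays between -1.33 and -1.06 and passes throughout, and Slc2a8 stays between -0.45 and -0.28 and passes under 9 of the 17.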

How the data were processed

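The values deposited by the authors are probe set intensities, unlogged, with a mean of 150 in every array once 2% was trimmed from each end. No label or header states how they were scaled or which software summarised them, and biotin labelling followed the maker's instructions, per the labels' protocols. The number of arrays limits the precision.

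The 64 control probe sets were left out, values were turned into log2(intensity + 16), and the brightest 60% by mean log2 value, or 27022 probe sets, were tested with limma 3.58.1 in R 4.3.3 (lmFit, eBayes with an intensity trend, no block). The offset understates changes of dim probe sets. A gene is read by its brightest probe set unless others are named. Of 45037 probe sets 34945 name 1 gene in the platform annotation, 932 several and 9160 none. Named are all member probe sets, up to 4 genes past the threshold per list, the 5 genes most like Slc2a4 and Slc2a1, and single genes of known role chosen after their values were seen. Members, lists and alternatives were chosen with earlier results of these data known. In a simulation of 27022 probe sets at the measured levels and scatter, the fit found 10 of 67 log2 changes sized 0.5, 47 of 67 sized 1, and 63 of 66 sized 2. False calls numbered 6, and 0 where nothing differed. Only these 67, 67 and 66 probe sets were changed, far fewer than the 2209 called in the data. The adjustment was therefore stricter in the simulation, and its shares do not give the power of the test here. Alternatives were quantile normalization, offsets of 1 and 64, other filters and variance models, array weights, blocks for replicate number and spike signal, leaving out each array, omitting probe sets named _s_at or _x_at, and gene means. Same-numbered arrays did not deviate together (r from -0.06 to 0.09). With 3 arrays per group, this cannot show whether the cultures were grown in pairs. Figures were drawn in Python 3.11.15 with matplotlib 3.10.9.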

Additional observations from a re-analysis of the deposited data

How the results depend on the processing

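Both Slc2a4 probe sets passed under all 17 alternatives run for them. The number of member probe sets lower was 3, or 2 where Slc2a8 was lost, and the number of member genes lower was 1 without a filter on dim probe sets, without an intensity trend and with the spike signal as a block, and 1 to 2 when single arrays were left out. No alternative called a member higher. Over all probe sets 2209 were called, 1396 without a filter, 861 without an intensity trend, and 1131 to 1952 when single arrays were left out, with 1232, 1131 and 1179 without resveratrol replicates 1 and 2 and control replicate 2. With the replicate number as a block, which the labels do not show to be a pairing, 1894 were called and the same 3 member probe sets counted as lower; of the 14 called list genes, Dennd4c and Napa lost their calls. Markers and the genes most like Slc2a4 were not compared across alternatives. Members that did not pass changed sign in places: the brightest Slc2a1 probe set ranged from -0.085 to 0.052 when single arrays were left out, the brighter Tbc1d4 probe set from -0.031 to 0.066, Stx4a from -0.23 to 0.11, and the dimmest tested Tbc1d1 probe set from -0.043 to 0.096, with -0.017 under array weights. Averaged over the probe sets of each gene, Slc2a4 had -1.29 and Slc2a8 -0.37, and these 2 were again the members lower. The 14 called list genes, whose alternatives were added after seeing the data, kept their direction throughout, and 36 of 236 refits lost the call. Slc2a3 and 1 Tbc1d1 probe set were too dim for the main test. Without a filter all 19 member probe sets were tested, and only the 2 of Slc2a4 were called. At so dim a level, the lack of a call for Slc2a3 allows no statement on it.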
